A study of Homo sapiens with 6 samples.

Results

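Long non-coding RNAs (lncRNAs) that are abundant in the nucleus or linked to cell growth were examined in NALM6 cells treated with THZ1. The set held 10 genes listed by symbol, out of 57905 genes in the deposited count table and 16622 genes tested. MALAT1 and NEAT1 give the RNAs of nuclear bodies, and GAS5, ZFAS1, SNHG1, SNHG5, SNHG6, SNHG8, SNHG12 and SNHG15 are 8 host genes of small nucleolar RNAs (snoRNAs). All 10 were found in the count table, passed the filter on low counts and were also present in the deposited FPKM table of 16730 genes. NALM6 is an established human line of precursor B-cell acute leukemia. THZ1 binds covalently to CDK7, a kinase of the transcription machinery, and inhibits it. RNA was sequenced from 3 libraries of cells given 500 nM of THZ1 and from 3 libraries of cells given the solvent DMSO, each for 24 h. The study asked how inhibition of CDK7 alters the transcripts of these leukemia cells. The labels do not say whether the libraries came from separate cultures, so each p-value measures the spread between these libraries only. The sources used here do not say whether poly(A) RNA was selected, either. Such a step could affect the counts of MALAT1 and NEAT1, and its part in their values was not tested.

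MALAT1 is retained in nuclear speckles, the bodies that store splicing factors, and the long form of NEAT1 is the scaffold around which paraspeckles assemble. A snoRNA host gene carries snoRNAs in its introns; the snoRNAs are released when the transcript is spliced and guide the chemical modification of ribosomal RNA. The exons left over from many such host genes encode no protein, are decayed by the nonsense-mediated pathway during translation, and often begin with a terminal oligopyrimidine tract, a C at the cap followed by a run of C and T that ties translation to growth signals. GAS5 was named for its accumulation in growth-arrested cells.

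The DMSO libraries held between 11015480 and 11164840 counts on genes and the THZ1 libraries between 7876402 and 8314306. The members were read at 102 to 11974 counts in a library, well above a floor of 3 counts, which corresponded to no more than 0.415 CPM (counts per 1000000 counts of TMM-scaled depth) and covers counting error only. Mitochondrial genes took 4.35% ± 0.0278 of the counts with DMSO and 13.2% ± 0.501 with THZ1 (SD, n = 3 libraries each), and the single gene ENSG00000266658 took 0.0330% and 1.92%. Of the 11 precursor B-cell markers, 8 were lower, 2 were higher and 1 was not called, and their summed level was 4005 to 4165 CPM with DMSO and 2116 to 2187 CPM with THZ1. For comparison, 52.6% of protein-coding genes with a mean of at least 10 CPM were lower and 33.2% higher. Of 14 markers of other cell types, 8 were under 1 CPM in every library, with CD8A and PPBP among those at 0, and the summed level of the 14 was 11.8 to 20.3 CPM with DMSO and 30.8 to 36.9 CPM with THZ1. Only 5 of the 14 passed the filter and were tested. COL1A1, at 15.7 CPM, and CD14, at 8.72 CPM with THZ1, were the 2 that were higher. LYZ was lower (log2 fold change −0.83, adjusted p-value 0.036 by edgeR), and MPO and ALB were not called. With the mitochondrial genes and ENSG00000266658 left out of the fit, an alternative added after seeing the data, 5 members were still called higher and 4 lower. The part of the marker shifts in the results on the lncRNAs was not tested.

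The annotated starts of the host genes are shown first, because the letters at the cap are what many snoRNA host genes share. RefSeq promoter entries were matched to 7 of the 10 members, and NEAT1, SNHG6 and SNHG15 had no entry. Each sequence below runs 5′ to 3′ on the strand of the gene from 10 bases before the RefSeq start to 30 bases from it, with positions in GRCh37, and capitals mark the unbroken run of C and T that begins at the start itself.
SNHG12 (chr1:28908356-28908395, - strand): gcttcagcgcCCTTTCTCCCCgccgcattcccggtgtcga
SNHG5 (chr6:86388422-86388461, - strand): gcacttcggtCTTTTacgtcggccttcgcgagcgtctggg
ZFAS1 (chr20:47895169-47895208, + strand): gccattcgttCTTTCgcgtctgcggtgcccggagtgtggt
SNHG1 (chr11:62623328-62623367, - strand): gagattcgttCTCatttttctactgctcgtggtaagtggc
SNHG8 (chr4:119199907-119199946, + strand): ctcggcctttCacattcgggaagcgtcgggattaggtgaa
GAS5 (chr1:173838154-173838193, - strand): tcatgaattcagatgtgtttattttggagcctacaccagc
MALAT1 (chr11:65265199-65265238, + strand): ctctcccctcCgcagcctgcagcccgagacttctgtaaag
The run was 11 bases in SNHG12, 5 in SNHG5 and in ZFAS1, 3 in SNHG1, 1 in SNHG8 and in the MALAT1 entry shown, and 0 in GAS5 and at the second RefSeq start of MALAT1, which begins with an A and is not shown. The RefSeq starts shown lay 59 bases (SNHG8) to 1259 bases (SNHG12) from the gene starts in GENCODE, with 163 in GAS5, 199 in SNHG5 and 464 in ZFAS1. Where the cap lies was not measured, so the run of 0 does not show that GAS5 transcripts lack a tract. Of the 6 host genes with an entry, 5 had a C at the start, against 14.7% of the 35116 promoters in the table. SNHG12, SNHG5 and ZFAS1 had a C followed by at least 4 more C or T, a pattern held by 4.1% of the promoters. These counts of start letters were chosen after the sequences had been seen. The 3 genes that begin this way did not share a direction with THZ1: ZFAS1 rose, SNHG5 fell and SNHG12 was not called.

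With THZ1, 5 of the 10 lncRNA genes rose, 4 fell and 1 was not called. MALAT1, NEAT1, SNHG15, ZFAS1 and SNHG1 were higher, SNHG8, SNHG5, GAS5 and SNHG6 were lower, and SNHG12 was the gene not called. Calls were made by edgeR's quasi-likelihood test at an adjusted p-value below 0.05, whatever the fold. Over all genes tested, 43.5% were called higher and 41.1% lower, so that a call in itself did not set these genes apart. The libraries of the treatments did not overlap for 9 of the 10 members, against 84.7% of all genes tested. Only MALAT1 and NEAT1 rose and only SNHG8 fell by a log2 fold change of at least 1.5, where 24.6% of all genes were called higher and 12.9% lower. The median log2 fold change was 0.07 over the 10 members and 0.03 over all genes tested. CPM values are relative to the sequenced RNA and show neither the number of cells nor the RNA in each cell. A gene said here to rise or fall did so relative to the other RNA. Its amount per cell was not measured and may have moved otherwise.

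**Figure D1:**
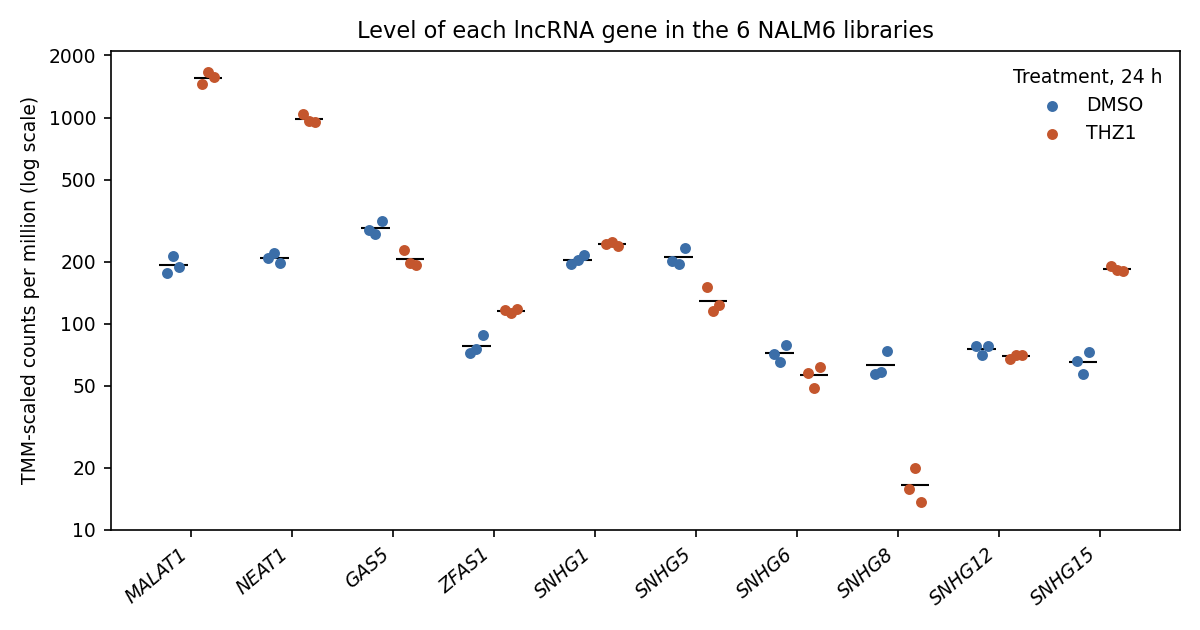
TMM-scaled CPM (log axis) of the 10 lncRNA genes in each of the 3 DMSO and 3 THZ1 libraries of NALM6 cells. Points are libraries and horizontal lines are means. MALAT1 and NEAT1 sit near 200 CPM with DMSO and between 951.6 and 1658 CPM with THZ1, SNHG8 drops below 20 CPM, and only SNHG12 has libraries of both treatments at the same level.

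MALAT1 rose the most of the 10 genes. Its level was 177.1, 213.9 and 189.1 CPM in the DMSO libraries and 1450, 1658 and 1578 CPM in the THZ1 libraries. The lowest THZ1 library thus lay far above the highest DMSO library. The log2 fold change was 3.01 (SE 0.08), or 8.08-fold, with an adjusted p-value of 2.9e-25 by edgeR's quasi-likelihood test. Among all genes ranked by CPM, MALAT1 moved from place 808 with DMSO to place 54 with THZ1. Its log2 fold change lay at percentile 85.8 of all genes tested. MALAT1 (ENSG00000251562) lies on chromosome 11 from 65265111 to 65275544 (GRCh37, plus strand), and its canonical transcript is 1 unspliced exon.

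NEAT1 showed the same direction with a smaller size. Its libraries had 207.2, 220.0 and 196.3 CPM with DMSO and 1043, 960.8 and 951.6 CPM with THZ1, and the groups did not overlap. This gave a log2 fold change of 2.24 (SE 0.07), or 4.74-fold, with an adjusted p-value of 3.8e-23 by the same edgeR test, and its place by CPM went from 722 to 108. NEAT1 (ENSG00000245532) lies upstream of MALAT1 on the same strand, from 65190245 to 65213011, with 52.1 kb between them. The short and the long form of NEAT1 begin at the same place, and a count per gene does not separate the paraspeckle scaffold from the short form.

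The ratio of NEAT1 to MALAT1 counts needs no scaling between libraries. It was 1.17, 1.03 and 1.04 in the DMSO libraries and 0.719, 0.580 and 0.603 in the THZ1 libraries. NEAT1 was therefore the more counted of the pair in every DMSO library and the less counted in every THZ1 library. The log2 ratio was 0.11 ± 0.10 with DMSO and −0.66 ± 0.17 with THZ1 (SD, n = 3 libraries each), a difference of −0.77 with a two-sided exact permutation p = 0.1, the smallest that 3 against 3 libraries allow.

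The 300-base promoters of MALAT1 and SNHG8 are shown because these 2 genes moved farthest in each direction. The sequences run 5′ to 3′ from 250 bases before the RefSeq start to 50 bases after it (GRCh37), and capitals mark GGGCGG or its reverse complement CCGCCC, the core of the GC box.
MALAT1 (chr11:65264959-65265258, + strand): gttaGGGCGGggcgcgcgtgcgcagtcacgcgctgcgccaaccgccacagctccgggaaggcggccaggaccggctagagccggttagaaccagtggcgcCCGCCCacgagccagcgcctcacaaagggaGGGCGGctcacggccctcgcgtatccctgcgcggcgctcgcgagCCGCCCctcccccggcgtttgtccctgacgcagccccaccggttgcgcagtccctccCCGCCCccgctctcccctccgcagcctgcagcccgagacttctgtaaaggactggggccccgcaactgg
SNHG8 (chr4:119199667-119199966, + strand): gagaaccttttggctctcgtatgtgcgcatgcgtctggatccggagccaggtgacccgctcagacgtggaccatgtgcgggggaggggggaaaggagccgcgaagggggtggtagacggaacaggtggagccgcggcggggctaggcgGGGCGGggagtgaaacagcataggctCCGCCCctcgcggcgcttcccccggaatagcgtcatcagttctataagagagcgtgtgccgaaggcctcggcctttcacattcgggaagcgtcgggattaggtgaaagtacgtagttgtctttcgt
MALAT1 has a pair of RefSeq entries, and the sequence shown is the one nearer to the annotated start of the gene. It held 5 copies of these letters and the SNHG8 promoter 2, whereas the other MALAT1 entry, with its start at 65266516, held 0 copies and a TATAAA 30 bases before its start. Among 8 promoter entries of the 7 members, 6 held at least 1 copy on either strand, against 45.0% of all promoters in the table. None of the 8 held CACGTG, the letters of the E-box, which 7.3% of all promoters hold. TATAAA was found in 2 (11.5% of all promoters) and CCAAT in 2 (34.6%), the latter with 3 copies in GAS5 and 1 in SNHG5. By base content GAS5 was the lowest, with 37.7% G and C, where the other entries ran from 46.0% in the second MALAT1 entry and 60.0% in SNHG1 to 73.7% in the first MALAT1 entry and the median of all promoters was 58.7%. A match of letters is a description of the window, and nothing was measured here on the binding of any factor.

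Among the 8 host genes, SNHG15, ZFAS1 and SNHG1 rose, SNHG8, SNHG5, GAS5 and SNHG6 fell, and SNHG12 was not called. Their log2 fold changes ran from −1.93 to 1.498 with a median of −0.24. A median of 0.63 was found over the 821 lncRNA genes with a mean of at least 10 CPM, of which 56.6% were called higher and 33.4% lower.

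SNHG15, which hosts a snoRNA of the H/ACA class, the class that guides pseudouridine formation, rose the most among the hosts. Its level was 65.73, 57.21 and 72.66 CPM with DMSO and 191.2, 181.3 and 179.7 CPM with THZ1. Every THZ1 library was more than 100 CPM above every DMSO library. Its fitted log2 fold change was 1.498 (SE 0.08), or 2.82-fold, with an adjusted p-value of 2.6e-17 by edgeR's quasi-likelihood test. This value was just under the limit of 1.5 used above, so that SNHG15 was not counted as past it. SNHG15 (ENSG00000232956) lies on chromosome 7 from 45022618 to 45026560 on the minus strand, and no overlapping gene was found for it in the annotation.

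SNHG8, also a host of an H/ACA snoRNA, fell the most. The DMSO libraries had 57.05, 58.03 and 73.33 CPM and the THZ1 libraries 15.78, 19.93 and 13.64 CPM. The groups were well apart, although the THZ1 values rested on 102 to 144 counts, the fewest of any member. The log2 fold change was −1.93 (SE 0.12), a 3.82-fold lower level, with an adjusted p-value of 1.5e-15 by the same edgeR test, at percentile 7.35 of all genes tested. Its place by CPM went from 3571 to 8181. SNHG8 (ENSG00000269893) lies on chromosome 4 from 119199858 to 119206471 on the plus strand. Exons of PRSS12, a gene for a serine protease, overlap it on the opposite strand. PRSS12 had 2 to 4 counts in the DMSO libraries and 56 to 62 in the THZ1 libraries, and passed the filter through the THZ1 libraries alone.

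SNHG15 and SNHG8 had nearly equal counts with DMSO and parted with THZ1. The ratio of SNHG15 to SNHG8 counts was 1.15, 0.986 and 0.991 with DMSO and 12.1, 9.10 and 13.2 with THZ1. This pair was chosen after its values were seen, and the ratio is given as a description.

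ZFAS1, a host of C/D box snoRNAs that guide methylation of ribosomal RNA, had 72.42, 74.99 and 87.68 CPM with DMSO and 116.2, 112.7 and 118.4 CPM with THZ1. All 3 THZ1 libraries lay above all 3 DMSO libraries. This gave a log2 fold change of 0.56 (SE 0.08), or 1.48-fold, with an adjusted p-value of 1.2e-07 by edgeR's test. ZFAS1 (ENSG00000177410) lies on chromosome 20 from 47894715 to 47916137 on the plus strand, next to ZNFX1, a helicase gene on the opposite strand whose start is 248 bases away and whose exons overlap it. ZNFX1 fell from 81.5 ± 0.807 CPM to 60.2 ± 4.09 CPM (log2 fold change −0.44, SE 0.08). Of the snoRNAs inside ZFAS1, SNORD12B was listed with 0 to 3 counts in the DMSO libraries and 15 to 24 in the THZ1 libraries. It did not exceed the floor of 3 counts with DMSO and passed the filter through the THZ1 libraries alone. SNORD12B also overlaps exons of ZFAS1 on the same strand, so it may share reads of the host transcript. SNORD12C and SNORD12 were too low to be tested.

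SNHG1, a host of several C/D box snoRNAs, had 194.3, 203.5 and 214.9 CPM with DMSO and 243.4, 248.6 and 237.4 CPM with THZ1. The groups did not overlap, and the log2 fold change was 0.25 (SE 0.07) with an adjusted p-value of 0.00104 by edgeR's test. The call depended on the scaling. With library sizes alone the log2 fold change was 0.0043 with an adjusted p-value of 0.95, and in the deposited log2 FPKM values, tested with limma, it was 0.04 with an adjusted p-value of 0.64. SNHG1 (ENSG00000255717) lies on chromosome 11 from 62619450 to 62623425 on the minus strand, and its start is 51 bases from that of SLC3A2, which is read in the other direction and encodes the heavy chain of an amino acid transporter. SLC3A2 rose from 219 ± 18.7 CPM to 612 ± 59.1 CPM, with a log2 fold change of 1.48 (SE 0.08) and an adjusted p-value of 9.3e-18 by the same test. The annotation gave no overlap between the pair.

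GAS5, a host of C/D box snoRNAs, had the highest CPM of the members with DMSO, at 284.7, 271.8 and 315.8 CPM, and 227.5, 196.8 and 192.4 CPM with THZ1. It fell in all 3 THZ1 libraries relative to every DMSO library. Its fitted log2 fold change was −0.50 (SE 0.07), a 1.41-fold lower level, with an adjusted p-value of 3.0e-07 by edgeR's test. GAS5 (ENSG00000234741) lies on chromosome 1 from 173827697 to 173838020 on the minus strand, and its canonical transcript has 12 exons. GAS5-AS1 overlaps its exons on the opposite strand and rose from 8.94 ± 0.376 CPM to 19.9 ± 1.86 CPM (log2 fold change 1.15, SE 0.14, adjusted p-value 6.4e-09 by edgeR). Of its other overlapping genes, ZBTB37 was lower (log2 fold change −0.47) and SNORD78 was too low to be tested.

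SNHG5, a further host of C/D box snoRNAs, had 201.5, 195.8 and 232.7 CPM with DMSO and 149.8, 115.4 and 123.0 CPM with THZ1. The first THZ1 library was the highest of its group and still below every DMSO library. The log2 fold change was −0.70 (SE 0.08), a 1.62-fold lower level, with an adjusted p-value of 5.0e-09 by edgeR's test. SNHG5 (ENSG00000203875) lies on chromosome 6 from 86360209 to 86388650 on the minus strand. Its overlapping genes on the same strand, PKMP3 and ENSG00000271793, were too low to be tested, and the latter had no counts in any library.

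SNHG6, which lies on chromosome 8 from 67832796 to 67838633 on the minus strand (ENSG00000245910), had 71.35, 65.16 and 79.07 CPM with DMSO and 57.73, 48.86 and 61.63 CPM with THZ1. The groups were close to each other but did not overlap. This gave a log2 fold change of −0.36 (SE 0.09) with an adjusted p-value of 0.00073 by edgeR's test. With upper quartile scaling it was −0.16 with an adjusted p-value of 0.10 and was no longer called. MCMDC2 overlaps the exons of SNHG6 on the opposite strand and was higher with THZ1, from 28.9 to 39.7 CPM (log2 fold change 0.46).

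SNHG12 had 78.21, 70.65 and 77.55 CPM with DMSO and 67.33, 70.74 and 70.85 CPM with THZ1, and the groups overlapped. Its fitted log2 fold change was −0.12 (SE 0.08) with an adjusted p-value of 0.176 by edgeR's test. Its sign depended on the scaling, with 0.08 under upper quartile factors and −0.36 under library sizes alone, where it was called lower. SNHG12 (ENSG00000197989) lies on chromosome 1 from 28905050 to 28909644 on the minus strand. Its end meets that of TRNAU1AP on the opposite strand, which rose from 29.6 to 52.9 CPM (log2 fold change 0.84, SE 0.10). SNORD99, a snoRNA in an intron of SNHG12, was not called (0.55, adjusted p-value 0.211 by edgeR).

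**Figure D2:**
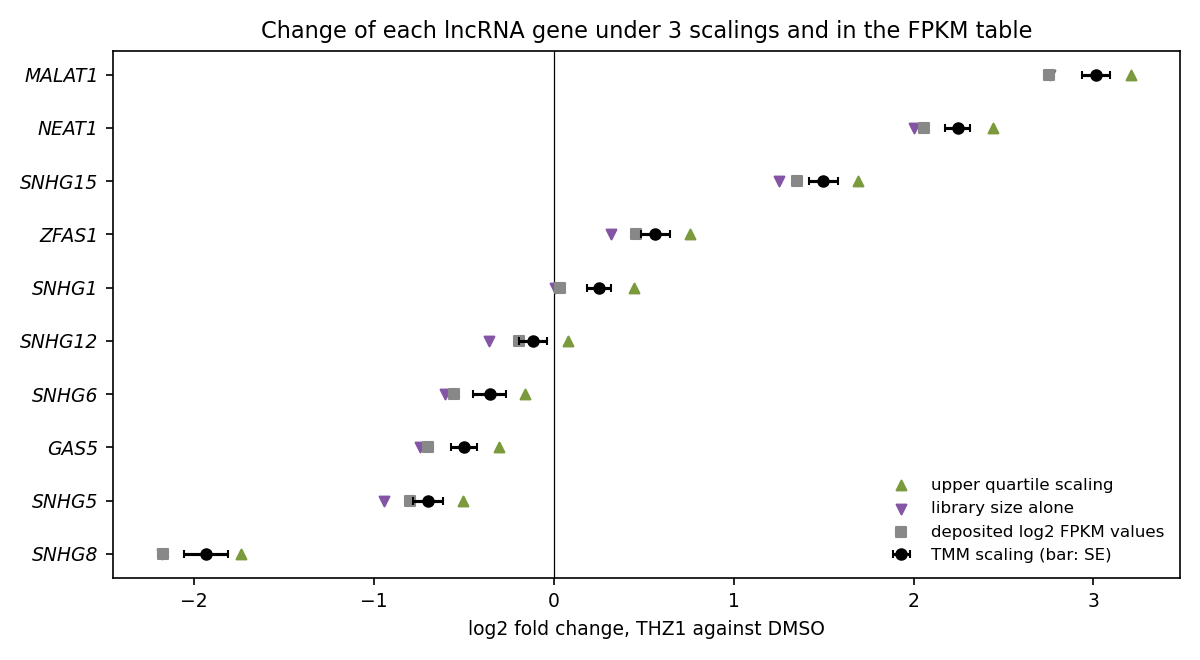
log2 fold change of THZ1 against DMSO for the 10 lncRNA genes. Black points are the TMM-scaled edgeR fit with standard errors, and the other symbols are upper quartile scaling, library size alone and the deposited log2 FPKM values. MALAT1, NEAT1, SNHG15 and ZFAS1 lie right of 0 and SNHG8, SNHG5, GAS5 and SNHG6 left of 0 under each of these, whereas SNHG12 falls on both sides and SNHG1 comes close to 0.

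The strand setting of the counting is not given in the sources used here, so reads of a lncRNA and of a gene on the opposite strand may have been shared. For MALAT1, the antisense lncRNA ENSG00000270117 had 1 count in all 3 DMSO libraries together and 61 to 86 counts in each THZ1 library, against 11024 to 11974 counts for MALAT1 itself. TALAM1, another antisense transcript of the locus, was not analysed here. For the other members, the overlapping genes that were tested had from 7.95 CPM (PRSS12) to 60.2 CPM (ZNFX1) with THZ1, apart from the snoRNAs. Their part in the values of the lncRNAs was not tested.

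Levels of different genes can be compared only per length, for which the deposited log2(FPKM + 1) values were used. With DMSO, GAS5 (7.45 ± 0.0377) and SNHG6 (7.39 ± 0.0708) were the highest and were not separated by their libraries, followed by SNHG1 (7.22 ± 0.0639). A step of 1.07 (SE 0.0652) then led down to SNHG5 and MALAT1, which overlapped, and to SNHG12 and SNHG15, which also overlapped. SNHG8, ZFAS1 and NEAT1 were the lowest, between 4.73 and 4.77, and their neighbours in this order were not separated. With THZ1, MALAT1 was the highest at 8.72 ± 0.0927, which was 1.47 (SE 0.0572) above SNHG1. SNHG15, SNHG6, NEAT1 and GAS5 came next without a gap between neighbours, from 6.89 to 6.76, and a step of 1.303 (SE 0.0770) separated them from SNHG12, SNHG5 and ZFAS1. SNHG8 was the lowest at 2.60 ± 0.287, which lay 2.63 (SE 0.168) under ZFAS1. On this scale MALAT1 went from place 2118 to place 219 of the 16730 genes, NEAT1 from 4918 to 1083 and SNHG8 from 4809 to 10991.

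The differences in deposited log2(FPKM + 1) ran in the same directions as the fold changes from counts for all 10 genes. They were 2.06 for NEAT1 and 1.35 for SNHG15 among the genes that rose, and −2.17 for SNHG8 and −0.80 for SNHG5 among those that fell. For SNHG1 the 3 DMSO values of 7.16, 7.29 and 7.21 overlapped with the THZ1 values of 7.26, 7.29 and 7.22. Within a treatment, these deposited values share nearly the same distribution in every library, so that their small spread is in part set by that step.

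**Figure D3:**
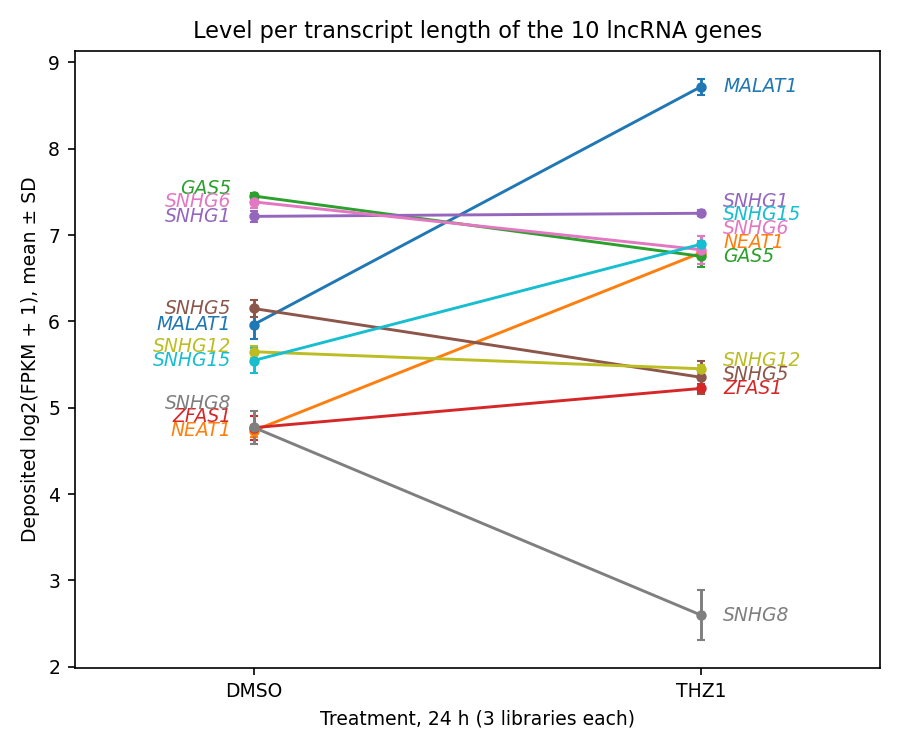
Deposited log2(FPKM + 1), mean ± SD over 3 libraries, of the 10 lncRNA genes with DMSO and with THZ1. Lines join the same gene. MALAT1 moves from the middle of the set to the top at 8.72, NEAT1 moves up from the lowest place, and SNHG8 drops to 2.60.

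As a share of all counts, the 10 genes together took 0.154%, 0.159% and 0.163% in the DMSO libraries and 0.326%, 0.331% and 0.322% in the THZ1 libraries. Every THZ1 library had a higher share than every DMSO library, although 4 of the genes fell. The mean share was 0.159% ± 0.00455 with DMSO and 0.326% ± 0.00496 with THZ1 (SD, n = 3 libraries each, two-sided exact permutation p = 0.1, the smallest possible). Relative to counts on protein-coding genes of the nucleus, which leaves out the mitochondrial genes, the members had 0.178 counts per 100 with DMSO and 0.426 per 100 with THZ1. The 8 host genes took 0.115% ± 0.00653 of all counts with DMSO and 0.0933% ± 0.00388 with THZ1, with the same exact permutation p = 0.1. This difference depended on the denominator, an alternative added after seeing the data: per 100 protein-coding counts of the nucleus the hosts had 0.129 ± 0.00726 with DMSO and 0.122 ± 0.00411 with THZ1, with overlapping libraries (two-sided exact permutation p = 0.3). Their TMM-scaled sums overlapped as well, at 997.1 to 1154 CPM with DMSO and 994.5 to 1069 CPM with THZ1. MALAT1 and NEAT1 together made up 27.3%, 30.3% and 25.0% of the members' counts with DMSO and 70.0%, 72.5% and 71.7% with THZ1. All annotated lncRNA genes together took 4.33% ± 0.0744 of the counts with DMSO and 5.71% ± 0.0477 with THZ1.

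**Figure D4:**
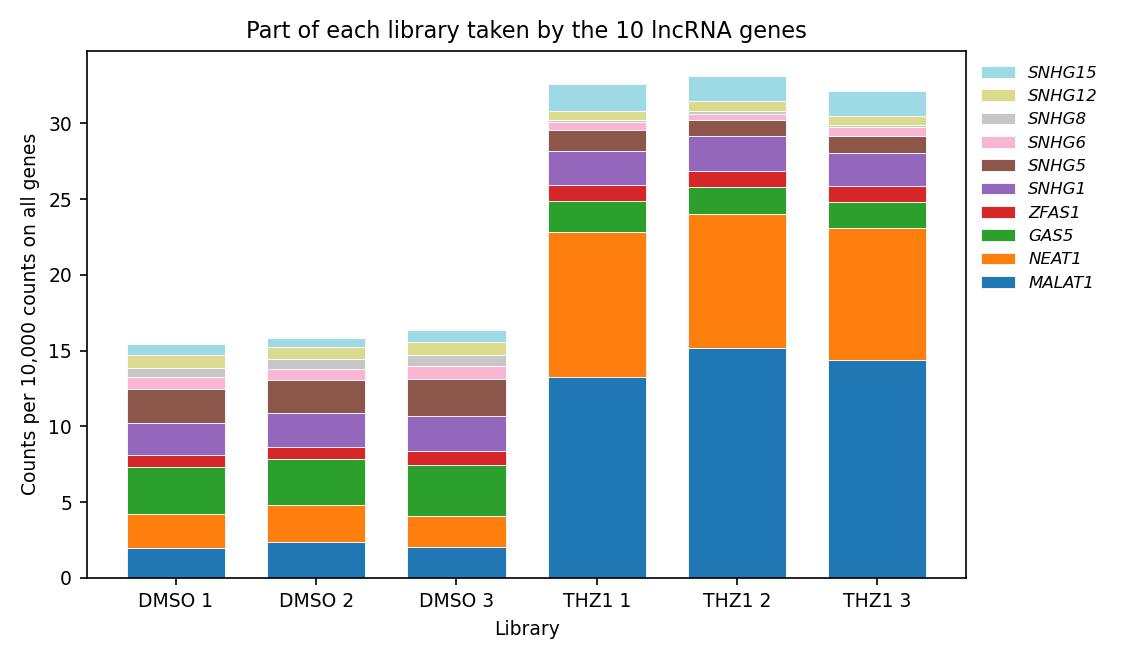
Counts of each of the 10 lncRNA genes per 10,000 counts on all genes, stacked for each library (bars start at 0). MALAT1 and NEAT1 fill the larger part of each THZ1 bar and the smaller part of each DMSO bar, while the stack of the 8 host genes is lower with THZ1 as a share of all counts, though not apart in TMM-scaled CPM (997.1 to 1154 and 994.5 to 1069).

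The genes around NEAT1 and MALAT1 were read for comparison with the pair. The window of 100 kb on each side was chosen after the values of MALAT1 and NEAT1 were seen. Of 14 other genes tested there, 12 were higher, 1 was lower and 1 was not called, where 43.5% of all genes tested were called higher. FRMD8, just upstream of NEAT1, rose from 64.8 to 130.9 CPM (log2 fold change 1.02). ZNRD2-DT (from 1.22 to 63.6 CPM, log2 fold change 5.69), FAM89B (4.21 by the fit, 0.498 to 9.40 CPM), KCNK7 (3.56) and TIGD3 (3.43) had larger log2 fold changes than MALAT1, from levels under 2 CPM with DMSO, as did the antisense ENSG00000270117 described above. These genes, so low with DMSO, are among the 12 that were higher. FAM89B overlaps ZNRD2 on the same strand, and ENSG00000270117 lies within MALAT1 on the opposite strand, so reads may be shared. EHBP1L1 and MAP3K11 rose by less, with log2 fold changes of 0.18 and 0.24. The lower gene was AP001362.1 (−0.42), and ZNRD2 was the gene not called.

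Other non-coding hosts of snoRNAs moved in both directions as well. Among all 2972 lncRNA genes tested, 61.6% were called higher and 24.6% lower, with a median log2 fold change of 1.27. With a mean of at least 10 CPM required, which the hosts below did not have to meet, these shares were 56.6% and 33.4%. Of 17 such hosts tested, 9 were higher, 7 were lower and SNHG20 was not called, with a median log2 fold change of 0.21. SNHG9 rose the most, from 0.747 to 32.4 CPM (log2 fold change 5.41). It had only 8 to 11 counts in each DMSO library and met the mean of 10 CPM set for named genes only through its THZ1 libraries. SNHG14 fell the most, from 56.4 to 18.9 CPM (−1.57, adjusted p-value 2.8e-15 by edgeR). SNHG14 spans a long imprinted region with many overlapping genes, so its count is uncertain. The most abundant of them, SNHG29, fell from 581 ± 44.2 to 449 ± 16.97 CPM (−0.37), and DANCR from 164 ± 11.1 to 84.5 ± 4.69 CPM (−0.96), while SNHG17 rose from 68.0 ± 6.31 to 137.3 ± 8.59 CPM (1.01). These 3 were chosen after their values were seen.

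Of 8972 protein-coding genes with a mean of at least 10 CPM, 33.2% were called higher and 52.6% lower, with a median log2 fold change of −0.28. Over all 11929 protein-coding genes tested, the shares were 36.3% and 47.6%. Among 39 protein-coding hosts of snoRNAs, most of them genes of ribosomal proteins or translation factors, 13 were higher, 17 lower and 9 not called, with a median of −0.13. These counts moved with the processing, from 5 to 16 higher and from 15 to 25 lower over the alternatives, and the sign of the median was positive under 2 of the 18. EIF4A1, which encodes an RNA helicase of translation initiation, had the highest log2 fold change (2.41, from 10.4 to 55.1 CPM). The read-through gene SENP3-EIF4A1 overlaps it on the same strand and may take an unknown part of its reads, so the level and change of EIF4A1 are uncertain. GNL3, which encodes the nucleolar GTPase nucleostemin, had the lowest (−2.04, from 223 to 54.3 CPM), and PBRM1 and GLT8D1 overlap it on the opposite strand.

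Among protein-coding genes with a mean of at least 10 CPM, 33.2% were called higher and 52.6% lower (41.1% lower over all genes tested). Of 17 genes for proteins that build or form snoRNA particles, 12 were lower, 2 were higher and 3 were not called, with a median of −0.55. Here and below these are RNA levels, and the levels of the proteins were not measured. GAR1, which encodes a core protein of H/ACA particles, fell the most, from 57.6 to 14.1 CPM (log2 fold change −2.03, adjusted p-value 5.6e-17 by edgeR). DKC1, the pseudouridine synthase of the same particles, fell from 234.0 ± 7.45 to 68.4 ± 3.28 CPM (−1.77), and FBL, the methyltransferase of C/D box particles, from 272 ± 41.6 to 107.8 ± 8.29 CPM (−1.33). NOP56, a C/D box core protein that is itself a snoRNA host, rose from 349 to 1062 CPM, and PIH1D1, of the assembly machinery, was the other gene that rose (1.22). DKC1, FBL and PIH1D1 were chosen after their values were seen.

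The RNAs that encode protein partners of the 2 nuclear bodies did not share one direction. For comparison, 33.2% of protein-coding genes with a mean of at least 10 CPM were called higher and 52.6% lower. Of 17 genes for paraspeckle proteins, 8 were higher, 7 lower and 2 not called (median −0.03, of the other sign under 4 of the 18 alternatives). RBM14 had the highest log2 fold change, from 132 to 387 CPM (1.55), although a read-through gene with RBM4 overlaps it, and SMARCA4 the lowest, from 483.5 to 173 CPM (−1.48). NONO fell (−0.57) whereas SFPQ (0.27) and PSPC1 (0.57), the other genes of its family, rose. These 3 were also chosen after their values were seen. Of 18 genes for nuclear speckle proteins, 10 were higher, 5 lower and 3 not called (median 0.33). SRRM2, a scaffold of speckles, rose from 823 to 4259 CPM (2.37, adjusted p-value 2.6e-22 by edgeR), and the splicing factor SRSF1 fell from 487 to 146 CPM (−1.74). The gene ENSG00000266086 overlaps SRSF1 on the same strand and may share its reads. The summed RNA level of the 18 speckle genes was 6813 to 7027 CPM with DMSO and 12140 to 12890 CPM with THZ1. SRRM2 alone made up 823 CPM of this with DMSO and 4259 CPM with THZ1, so the sum does not describe the 18 genes alike.

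Genes of nonsense-mediated decay and the exon junction complex, the pathway that removes spliced host transcripts, numbered 7 higher and 8 lower of 15. Their median log2 fold change was −0.31. Of protein-coding genes with a mean of at least 10 CPM, 33.2% were called higher and 52.6% lower (median −0.28). The shares were 43.5% higher and 41.1% lower over all genes tested. SMG8, a regulator of the kinase of the decay pathway, rose from 24.5 to 101.8 CPM (log2 fold change 2.06), and MAGOHB, of the junction complex, fell from 33.4 to 8.49 CPM (−1.98). The gene ENSG00000265303 overlaps SMG8 on the same strand and may share its reads. The helicase UPF1 was higher (0.52) and its partner UPF2 lower (from 96.2 to 48.1 CPM), both chosen after their values were seen. RNase P and RNase Z, which process the tRNA-like ends of MALAT1 and of the long NEAT1 form, were represented by 10 tested genes. Of these, 6 were lower, 2 higher and 2 not called (median −0.49), beside the protein-coding shares of 52.6% lower and 33.2% higher. Without a minimum level, those shares were 47.6% lower and 36.3% higher. POP7 rose from 52.6 to 177 CPM (1.75) and RPP40 fell from 24.4 to 7.78 CPM (−1.65). ELAC2, which encodes a form of RNase Z, fell from 164 ± 7.61 to 80.1 ± 2.40 CPM (−1.04) and was chosen after its values were seen.

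**Figure D5:**
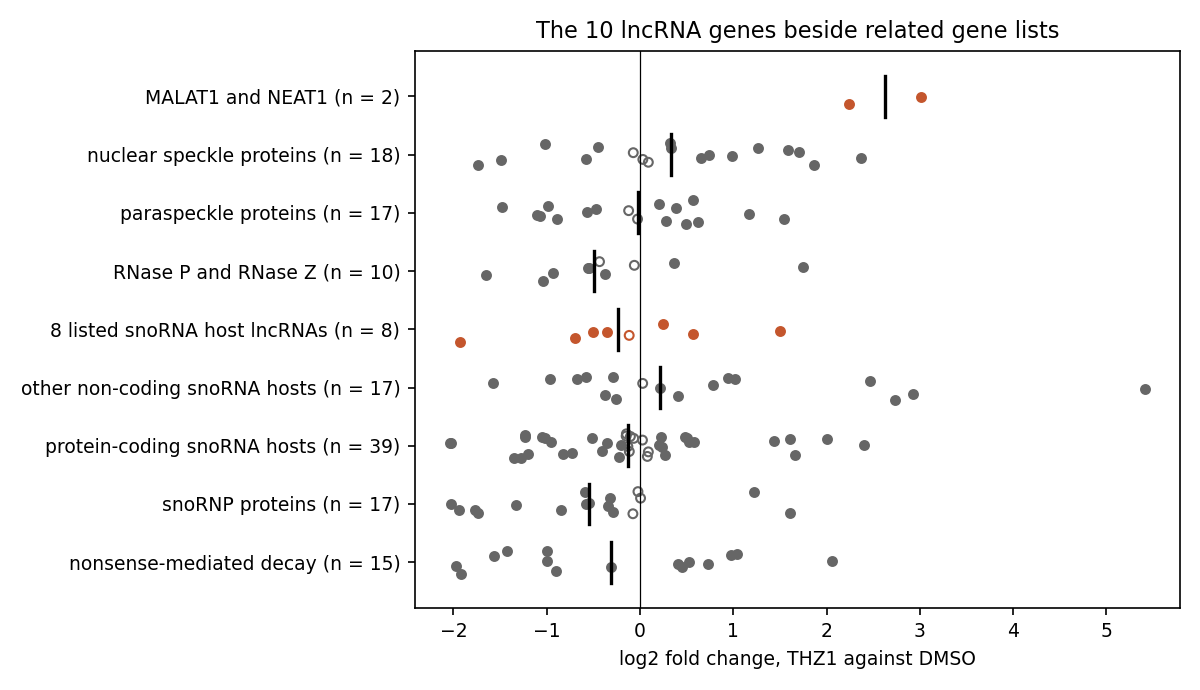
log2 fold change of THZ1 against DMSO for the 10 lncRNA genes and for each companion list, one point per tested gene (filled if called, open if not called, spread vertically for legibility only), with a bar at the median of the list. Medians lie at −0.55 for the snoRNA particle proteins, −0.49 for RNase P and Z, −0.31 for nonsense-mediated decay and 0.33 for the nuclear speckle proteins, and between −0.24 and 0.21 for the other lists of more than 2 genes, and every list holds genes on both sides of 0 except the pair MALAT1 and NEAT1. Over all protein-coding genes with a mean of at least 10 CPM the median was −0.28.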

How the data were processed

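RNA-SEQ of 6 NALM6 libraries was analysed, 3 per treatment, grouped by the treatment given in the labels. The authors deposited raw counts per gene; per the methods and processing notes, STAR 2.7.3a aligned the filtered reads to GRCh37, and genes were counted with htseq-count. The annotation and the strand setting of the counting are not given in the sources used here. The authors also deposited RSEM-derived FPKM values, read here as log2(FPKM + 1); the fold changes, p-values and FDR of that table were not used. Depth was 7876402 to 11164840 counts per library, and replicates differed beyond sampling noise (chi-square per gene 1.78 to 8.61).

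Genes were filtered with filterByExpr (minimum count 10, minimum total 15), scaled by TMM and tested, two-sided, with the quasi-likelihood test of edgeR 4.0.16; p-values were adjusted by Benjamini and Hochberg's procedure across 16622 genes and called below 0.05. Exact permutation tests were used for shares and ratios. Alternatives were other scalings and filters, DESeq2 1.42.0, limma 3.58.1 on the FPKM values, a replicate block and leaving out each library. Symbols, coordinates and overlaps came from GENCODE 44 on GRCh37, and promoters from RefSeq (GRCh38.p14), each matched exactly once in GRCh37. The test was checked on simulated counts in which few genes changed. That check does not cover data in which most genes are called, as here. R 4.3.3 and Python 3.11.15 were used.

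The members and the companion lists were chosen with earlier results of these data known. Named genes were the members, genes overlapping them or starting within 2000 bases on the opposite strand, and the highest and lowest gene of each list with a mean of at least 10 CPM; others are marked in the text, and the cell type markers and the NEAT1-MALAT1 neighbours were also outside this rule. SNHG4, ZNHIT3, TAF15 and RBM8A of the lists were not used here. Some results are not reported here.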

Additional observations from a re-analysis of the deposited data

How the results depend on the processing

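Over 18 alternatives, 4 to 5 members were called higher and 3 to 5 lower. MALAT1, NEAT1, SNHG15, ZFAS1, GAS5, SNHG5 and SNHG8 kept their direction and their call in all 18. SNHG12 changed sign with upper quartile factors (log2 fold change 0.0773, adjusted p-value 0.37) and when every library had to hold at least 10 counts (0.0168, 0.85), and was called lower in 7 alternatives by edgeR or limma, among them library sizes alone (−0.36) and leaving out the second DMSO library (−0.18, adjusted p-value 0.029). SNHG1 lost its call under library sizes alone and also in 4 limma fits of the FPKM table, and SNHG6 with upper quartile factors. The cause was not tested, but the median of all genes shifted by 0.19 with upper quartile factors, −0.25 by library sizes alone and −0.26 in the FPKM table, and the share of calls that were higher ran from 44.2% to 57.2% (51.4% as reported). With a log2 fold change of at least 1.5 required, 2 members were higher and 1 lower. Counted against protein-coding nuclear genes, the difference in the members' share was 0.248 per 100 counts, instead of 0.168 percentage points of all counts. On that denominator, the difference for the 8 hosts went from −0.0217 to −0.00723. The same-numbered libraries did not deviate together (correlations −0.004, 0.000969 and 0.0206), and with the replicate number as a block 5 members were higher and 4 lower. Each library left out in turn gave log2 fold changes of 2.94 to 3.07 for MALAT1, 2.19 to 2.27 for NEAT1, 1.39 to 1.56 for SNHG15 and −2.10 to −1.83 for SNHG8. Of the companion list counts, 233 of 252 stayed within 1.5 times. In the limma fits 5 protein-coding hosts and 4 or 5 genes for paraspeckle proteins were higher. In these fits and with library sizes alone, 8 genes for speckle proteins were lower. In the limma fits, with library sizes alone and without the second THZ1 library, 1 gene of RNase P and Z was higher.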
